A study of Homo sapiens with 6 samples.

Results

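The 6 genes described here encode subunits of cleavage stimulation factor (CSTF1, CSTF2, CSTF2T and CSTF3) and of cleavage factor IIm (PCF11 and CLP1). They were taken by name and measured as all reads of the gene's strand in a fixed hg19 window around each gene, in data that held 28114 groups of neighbouring poly(A) sites (units). The windows were chr20:54967000-54981000 (plus strand) for CSTF1, chrX:100075000-100097000 (plus) for CSTF2, chr10:53454000-53460000 (minus) for CSTF2T, chr11:33105000-33184000 (minus) for CSTF3, chr11:82867000-82900000 (plus) for PCF11 and chr11:57424000-57430500 (plus) for CLP1, and site positions below are in the same build. Poly(A) ends were counted by A-seq, which primes cDNA synthesis at the junction of transcript and poly(A) tail, in HEK293 cells, a human embryonic kidney line. A-seq counts transcript ends, so a longer gene is not counted more often for its length. The study lowered the subunits of cleavage factor Im (CF Im), and the comparisons made here ask how the genes of its partner factors, and the poly(A) sites these genes use, differed between the libraries.

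Each of the 6 groups held 1 library. Cells whose RNA was fragmented by alkaline hydrolysis had received the CF Im25 siRNA (Ambion S224836), the CF Im59 siRNA (Ambion S21772), the scrambled-A siRNA or no siRNA. Cells whose RNA was digested with RNase I had received a Dharmacon double-stranded oligo against CF Im68, or the scrambled-A siRNA. Transfected cells were collected after 3 days. The siRNA was delivered transiently to a bulk culture, so fewer cells carrying a transcript and less of it per cell cannot be told apart. No group has a second library to check it, every interval below covers counting error only, and no p-value was computed. Copies made by PCR are not independent molecules, and whether they had been removed is not given in the sources used here.

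In textbook accounts, cleavage stimulation factor binds the G/U-rich element downstream of a poly(A) site. CSTF3 (CstF-77) is its scaffold, CSTF1 (CstF-50) a WD-repeat subunit and CSTF2 (CstF-64) the RNA-binding subunit, and CSTF2T (tau CstF-64) is an intronless paralog of CSTF2. Cleavage factor IIm consists of PCF11, which binds the tail of RNA polymerase II and links cleavage to termination, and CLP1, an RNA 5′-kinase that joins it. CSTF3 and PCF11 are both known for poly(A) sites inside early introns that give short transcripts.

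The libraries held 5351980 to 18183644 reads, and levels are given as CPM, counts scaled to the reads in nuclear units. The target of each siRNA was lower in its own library: NUDT21 (CF Im25) had 13.03 CPM after CF Im25 siRNA, against 96.2 CPM with scrambled siRNA. CPSF7 (CF Im59) had 30.7 CPM after CF Im59 siRNA, against 69.7 CPM with scrambled siRNA, and CPSF6 (CF Im68) had 45.4 CPM after CF Im68 siRNA, against 133 CPM with scrambled siRNA. Of 4 genes taken as marks of HEK293 cells, NEFL (675 to 10311 reads), LIN28B (281 to 806) and PAX2 (35 to 93) were present in every library and NEFM had 4 to 18 reads. ALB, a liver gene, had 0 to 2 reads and HBB, a red cell gene, had 0. NEFL was uneven, at 742 to 1610 CPM in the 3 knockdown libraries and the RNase I scrambled library, and 77.8 and 104 CPM in the alkaline libraries with scrambled siRNA and without siRNA. Whether this unevenness has a part in any value below was not tested.

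The sequences below are stretches of 30 bases around poly(A) signals. Those of CSTF1, CSTF2T and CLP1 and the intronic ones of CSTF3 lie at the spacing of sites that the results turn on, while those of CSTF2, the CSTF3 terminal end and the short PCF11 transcript are the last signal of an annotated transcript and were matched to no site. The sequences come from the GENCODE 29 transcripts (GRCh38), while the deposited sites are in hg19, so the signals matched to sites were placed by distances within the transcript only and not by alignment. Capitals mark the signal, which was searched as AATAAA or ATTAAA on the transcript strand. Of 206694 GENCODE transcripts, 56082 (27.1%) hold one of the 2 in their last 30 bases. This share does not apply to the signals that were chosen by distance from a whole transcript.
CSTF1 upstream site: tagggcATTAAAgtgcttttgacatgagga
CSTF1 downstream site: tctgatAATAAAgctcagatctgcaacttt
CSTF2 last signal: tctgtgacttgaAATAAActttgaacacaa
CSTF2T upstream site: taacaaAATAAAagtttacccaaaagtata
CSTF2T downstream site: atgcagaaAATAAAgatacaattaaggctg
CSTF3 intronic site, 56920 nt upstream of the terminal one: ggagtaATTAAAatgaatttttgaaatttg
CSTF3 intronic site, 56847 nt upstream of the terminal one: aacaacATTAAAacagtttcaatggtattg
CSTF3 last signal: tcctttaaaaAATAAAaggattcagaaaca
PCF11 short transcript 207, last signal: aaaatttgtgAATAAAacatataaaatatg
CLP1 upstream site: ccttccAATAAAgttcaaacttaaaaaaaa
CLP1 downstream site: cattttAATAAAtatttttgccatatcata

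The CSTF1, CSTF2T and CLP1 signals were chosen, among the 5, 6 and 3 of their transcripts, for the spacing nearest that of the sites. A near spacing was thus set by this choice and is no evidence that these signals serve these sites. The CSTF1 signals were 207 nt apart, against 205 nt between the sites in the data. In CSTF2T the signals were 1769 nt apart and the sites 1776 nt. The CLP1 signals were 31 nt apart and the sites 38 nt. In CSTF3 the points at 56920 and 56847 nt from the annotated terminal end lie 18 and 21 nt downstream of their ATTAAA, in the last exon of transcript 203, which has 3 exons where the full-length transcript 201 has 21. GENCODE also ends the CSTF3 transcript 202 at 56881 nt from the terminal end. In GRCh38 the upstream CSTF1 stretch is chr20:56404023-56404052 and the downstream one chr20:56404230-56404259, both on the plus strand and in the last exon of transcript 201. The PCF11 stretch, chr11:83158850-83158879 on the plus strand, is at the end of transcript 207, which stops at nucleotide 1892 of the gene, within the first intron (nucleotides 645 to 4339) of the full-length transcript, and whose status GENCODE leaves to be settled. GENCODE also places a noncoding gene within PCF11 on the same strand, and reads from it cannot be told apart from those of PCF11.

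No member passed the 2-fold rule for total reads after any of the 3 siRNAs, nor in scrambled siRNA against no siRNA. The rule asked for a 2-fold difference in CPM whose exact 95% interval left out 1, with 50 reads or more in the richer library. After CF Im25 siRNA 0 of 6 members were called in either direction, and the same rule called 13.1% of 14983 units higher and 12.1% lower. With CF Im59 siRNA 0 of 6 were called, against 8.61% of units higher and 11.1% lower. With CF Im68 siRNA 0 of 5 were called (CLP1 had too few reads), against 11.2% of units higher and 6.96% lower. In scrambled siRNA against no siRNA 0 of 6 were called, against 4.3% of units higher and 4.29% lower. With 6 genes and shares of this size, a count of 0 is no result about the members. Below 2-fold, the median fold of the 6 members was 1.15 after CF Im25 siRNA, 0.716 after CF Im59 siRNA and 0.948 after CF Im68 siRNA, and the medians of all units tested were 0.999, 0.957 and 1.05. The median fold of the members in scrambled siRNA against no siRNA was 1.15, with 1.03 over all units.

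**Figure D1:**
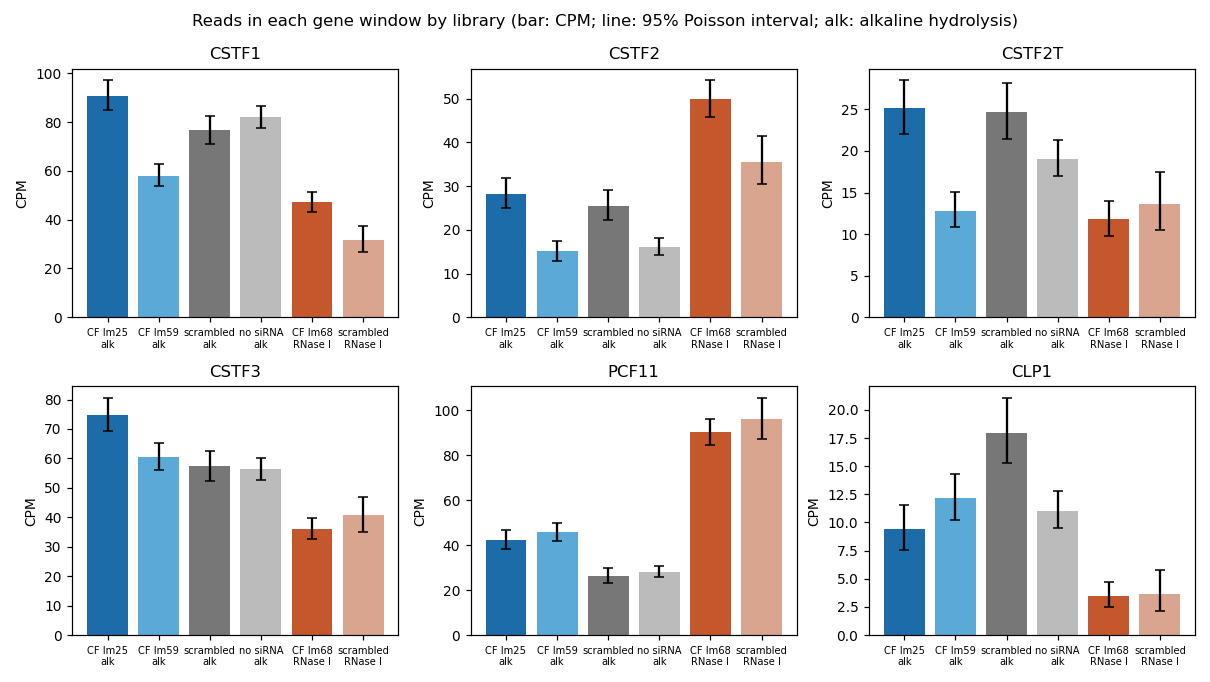
Level of each of the 6 genes in the 6 libraries. Bars give reads in the gene window in CPM and lines the 95% Poisson interval, with the alkaline libraries on the left and the RNase I libraries on the right of each panel. PCF11 was highest in the RNase I libraries (90.2 and 96.0 CPM), and CLP1 lowest (3.47 and 3.63 CPM).

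CSTF1, the WD-repeat subunit of cleavage stimulation factor, had 90.9 CPM after CF Im25 siRNA and 58.1 CPM after CF Im59 siRNA, against 76.6 CPM with scrambled siRNA and 82.0 CPM without siRNA. In the RNase I libraries it had 47.2 CPM after CF Im68 siRNA, against 31.8 CPM with scrambled siRNA. The CF Im59 library was the lowest of the alkaline libraries, and its interval (53.8 to 62.7 CPM) did not meet those of the others, while the controls (70.9 to 82.7 with scrambled siRNA, 77.7 to 86.5 without) overlapped. The fold was 0.758 (interval 0.680 to 0.846) after CF Im59 siRNA, 1.19 (1.07 to 1.31) after CF Im25 siRNA and 1.48 (1.23 to 1.79) after CF Im68 siRNA. For CF Im68 this value holds for the window only: with a further site at 54981418, outside the window but in the same unit, the fold was 1.04.

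CSTF2, the RNA-binding subunit, had 28.2 CPM after CF Im25 siRNA and 15.1 CPM after CF Im59 siRNA, against 25.5 CPM with scrambled siRNA and 16.02 CPM without siRNA. It had 49.8 CPM after CF Im68 siRNA, against 35.6 CPM with scrambled siRNA in the RNase I libraries. The controls were themselves apart, since scrambled siRNA over no siRNA gave 1.59 (1.32 to 1.91), which is of the size of its knockdown differences. The fold after CF Im59 siRNA was therefore 0.593 (0.483 to 0.726) against scrambled siRNA and 0.942 (0.773 to 1.14) against no siRNA. After CF Im25 siRNA it was 1.11 (0.925 to 1.33) against scrambled siRNA and 1.76 (1.48 to 2.09) against no siRNA. Over the CF Im68 siRNA and its control the fold was 1.40 (1.17 to 1.67). The window leaves out a site at 100098523 in the same unit, and with it the fold after CF Im25 siRNA was 0.686 (0.580 to 0.811) against scrambled siRNA and 0.940 (0.802 to 1.10) against no siRNA, on the other side of 1. With that site the fold after CF Im59 siRNA was 0.764 (0.654 to 0.893) against scrambled siRNA and 1.05 (0.906 to 1.21) against no siRNA.

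CSTF2T, the intronless paralog, had 25.1 CPM after CF Im25 siRNA and 12.8 CPM after CF Im59 siRNA, against 24.7 CPM with scrambled siRNA and 19.04 CPM without siRNA. Its level after CF Im68 siRNA was 11.8 CPM, against 13.7 CPM with scrambled siRNA. The CF Im59 library was lowest among the alkaline libraries, with a fold of 0.521 (0.419 to 0.645) against scrambled siRNA and 0.674 (0.551 to 0.822) against no siRNA. The first value lies beside the 2-fold limit: counted over the 3 called sites of the gene alone, it was 0.494 (0.395 to 0.618) and passed the rule. The folds were 1.02 (0.844 to 1.23) for CF Im25 siRNA and 0.862 (0.634 to 1.18) for CF Im68 siRNA. CSTF2 and CSTF2T are close in coding sequence, and how reads that match both were placed is not given in the sources used here.

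CSTF3, the scaffold, had the narrowest relative range of the 6 in the alkaline libraries. It had 74.8 CPM after CF Im25 siRNA and 60.6 CPM after CF Im59 siRNA, against 57.4 CPM with scrambled siRNA and 56.3 CPM without siRNA. Digestion with RNase I gave 36.0 CPM after CF Im68 siRNA, against 40.7 CPM with scrambled siRNA. The CF Im25 library was the only one whose interval (69.4 to 80.4 CPM) lay above those of the other alkaline libraries, at 1.30-fold (1.16 to 1.46) over scrambled siRNA and 1.33-fold (1.20 to 1.46) over no siRNA. The other folds were 1.06 (0.940 to 1.19) after CF Im59 siRNA and 0.883 (0.741 to 1.05) after CF Im68 siRNA.

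PCF11, the polymerase-binding subunit of cleavage factor IIm, had 42.3 CPM after CF Im25 siRNA and 45.7 CPM after CF Im59 siRNA, against 26.3 CPM with scrambled siRNA and 28.2 CPM without siRNA. In the RNase I libraries it had 90.2 CPM after CF Im68 siRNA, against 96.0 CPM with scrambled siRNA. Both alkaline knockdown libraries were above both alkaline controls, and their intervals did not meet those of the controls. The folds were 1.61 (1.37 to 1.90) after CF Im25 siRNA and 1.74 (1.49 to 2.04) after CF Im59 siRNA against scrambled siRNA, and 1.498 (1.31 to 1.71) and 1.62 (1.43 to 1.84) against no siRNA, all under the 2-fold limit. The 2 comparisons share their control library. After CF Im68 siRNA the fold was 0.939 (0.839 to 1.05).

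Some PCF11 reads were piled at single nucleotides. The sites at 82895194 and 82896834 held 97.1% and 91.0% of their reads at the most used nucleotide within each library, where the sites at 82869914 and 82896228 held 45.0% and 47.0%. Without the 2 piled sites PCF11 had 27.3 CPM after CF Im25 siRNA and 19.9 CPM after CF Im59 siRNA, against 11.8 CPM with scrambled siRNA and 13.6 CPM without siRNA. The fold after CF Im25 siRNA was then 2.32 (1.84 to 2.95), past the rule, and after CF Im59 siRNA 1.70 (1.34 to 2.16). After CF Im68 siRNA there were 73.6 CPM, against 58.02 CPM with scrambled siRNA, a fold of 1.27 (1.10 to 1.46). This count was chosen after seeing the data, and what made the piles was not tested. Over the unit of the top-ranked site (82895194 to 82896834), which keeps the piled sites and leaves out 82869914, the folds were lower. They were 1.29 (1.06 to 1.58) after CF Im25 siRNA and 1.70 (1.42 to 2.04) after CF Im59 siRNA against scrambled siRNA. After CF Im68 siRNA the unit fold was 0.829 (0.714 to 0.964), on the other side of 1 from the count without piled sites.

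CLP1, the kinase, was the least abundant member. It had 9.41 CPM after CF Im25 siRNA and 12.1 CPM after CF Im59 siRNA, against 18.0 CPM with scrambled siRNA and 11.1 CPM without siRNA. The scrambled library stood above the other 3 alkaline libraries, at 1.62-fold (1.30 to 2.02) over no siRNA. Against scrambled siRNA the folds were 0.523 (0.400 to 0.682) after CF Im25 siRNA and 0.676 (0.534 to 0.854) after CF Im59 siRNA, and against no siRNA they were 0.850 (0.654 to 1.10) and 1.10 (0.874 to 1.38). The RNase I libraries held 38 reads (3.47 CPM) after CF Im68 siRNA and 17 reads (3.63 CPM) with scrambled siRNA, too few for the rule.

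**Figure D2:**
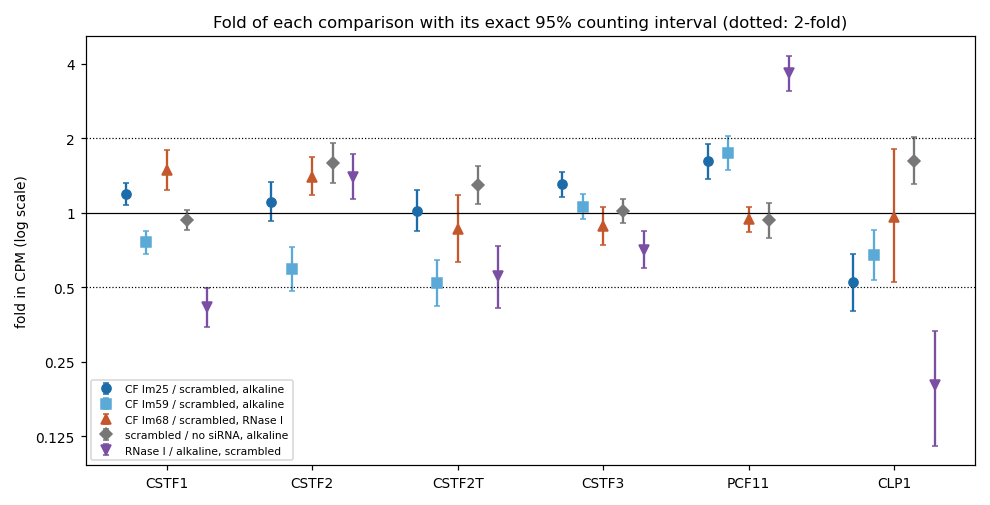
Fold in CPM of each comparison for the 6 genes, on a log axis, with the exact 95% counting interval and dotted lines at 2-fold. The knockdown folds lie between 0.521 and 1.74. Those between the scrambled libraries, RNase I over alkaline, span 0.202 (CLP1) to 3.65 (PCF11).

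Of 11 other genes of 3′ end processing (the CPSF subunits CPSF1 to CPSF4, FIP1L1 and WDR33, the scaffold SYMPK, RBBP6, the poly(A) polymerases PAPOLA and PAPOLG, and the phosphatase SSU72), 0 were called higher and 0 lower after each of the 3 siRNAs and in scrambled siRNA against no siRNA. Their median folds were 1.07 after CF Im25 siRNA, 0.815 after CF Im59 siRNA and 0.981 after CF Im68 siRNA. Among the other members and these 11 genes, the gene with the nearest pattern over the 3 knockdown folds was named for each member, by the root mean square difference of log2 folds. CSTF1 and CSTF2 were nearest to each other (0.22 on the log2 scale) in the window folds only: over whole units the folds of CSTF1 after CF Im25, CF Im59 and CF Im68 siRNA were 1.19, 0.834 and 1.04, and those of CSTF2 were 0.686, 0.764 and 1.39. CSTF2T was nearest to CPSF4 (0.21), CSTF3 to FIP1L1 (0.15), PCF11 to FIP1L1 (0.34) and CLP1 to CPSF3 (0.25). These rest on 3 comparisons, of which 2 share a control library.

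Site use was measured as the share of reads at the upstream of the 2 most used sites of a window, ranked by the mean of their reads over library totals, each with at least 5% of the reads by that mean. Site shares differed between the fragmentation methods, so this rank can differ from that in a single library. In PCF11 the top-ranked site, 82896228, led in no library: 82895194 led in the 4 alkaline libraries, 82869914 after CF Im68 siRNA and 82896834 in the RNase I scrambled library. In CSTF3 the second rank was nearly tied, and by the mean share of the window it goes to 33106172 (8.09%) over 33162978 (5.48%), a pair that gave no call after any siRNA. A shift was called at a change of 20 points, with at least 50 reads over both sites in each library and a 95% Newcombe interval that left out 0. Of the members, 5 gave such a pair, and CSTF2 had a single main site, at 100095922, with 83.5% to 94.9% of the window. After CF Im25 siRNA 0 of 5 pairs were called upstream and 1 downstream (CLP1), where the rule called 18.5% of 6472 unit pairs upstream and 2.83% downstream. After CF Im59 siRNA 0 of 5 were called upstream and 1 downstream (CLP1 again), against 2.51% and 4.85% of unit pairs. After CF Im68 siRNA 0 of the 3 pairs with enough reads were called, against 24.7% upstream and 1.87% downstream. In scrambled siRNA against no siRNA 0 of 5 were called, against 2.46% upstream and 1.22% downstream.

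The units of the genome-wide count are narrower than a gene with distant sites, so the pair was also taken within the unit of each member's top-ranked site. This was chosen after seeing the data. After CF Im25 siRNA 2 of 6 members were then called upstream (CSTF2 and PCF11), beside 18.5% of all unit pairs, and 1 downstream (CLP1), beside 2.83%. After CF Im59 siRNA 1 of 6 was called, CLP1 downstream, beside 4.85%. After CF Im68 siRNA 1 of 4 was called upstream (PCF11), beside 24.7%, and 0 downstream. In scrambled siRNA against no siRNA 0 of 6 were called. With 4 to 6 pairs and shares of this size, these counts are no result about the members as a group.

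**Figure D3:**
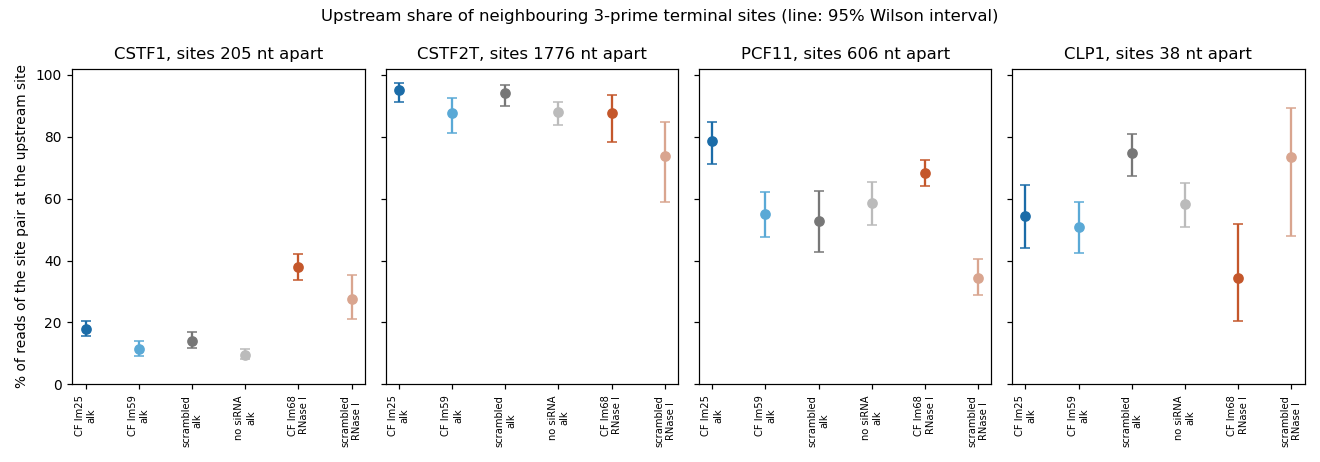
Share of the reads of 2 neighbouring sites that lie at the upstream one, in 4 members and 6 libraries, with the 95% Wilson interval. In PCF11 the CF Im25 library (78.7%) lies above both alkaline controls (52.7% and 58.7%), and the CF Im68 library (68.4%) above its control (34.5%).

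In PCF11 the pair within the unit, its last 2 sites, lay 606 nt apart, at 82896228 and 82896834. The upstream site took 78.7% of 136 reads after CF Im25 siRNA and 55.1% of 178 reads after CF Im59 siRNA, against 52.7% of 93 reads with scrambled siRNA and 58.7% of 189 reads without siRNA. It took 68.4% of 493 reads after CF Im68 siRNA, against 34.5% of 261 reads with scrambled siRNA. The CF Im25 and CF Im68 libraries were higher than their controls, and the CF Im59 library lay among the controls. The changes were 26.0 points (interval 13.5 to 37.7) after CF Im25 siRNA, 2.37 points (-9.90 to 14.7) after CF Im59 siRNA and 33.9 points (26.6 to 40.6) after CF Im68 siRNA. Against no siRNA the change after CF Im25 siRNA was 19.9 points (9.75 to 29.3), just under the limit. The downstream site of this pair is one of the piled sites. The unit's other piled site, 82895194, ranked below both by mean reads but above both by mean share of the window (24.1%, with 24.0% for 82896228 and 18.7% for 82896834). Paired by mean share, a rank chosen after seeing the data, 82895194 took 52.0% of its pair with 82896228 after CF Im25 siRNA and 68.9% after CF Im59 siRNA, against 62.6% with scrambled siRNA and 59.6% without siRNA. It took 7.16% after CF Im68 siRNA, against 7.22% with scrambled siRNA. The differences from scrambled siRNA were -10.6 points (-20.8 to 0.130) after CF Im25 siRNA, 6.29 points (-3.16 to 16.1) after CF Im59 siRNA and -0.0540 points (-7.34 to 4.77) after CF Im68 siRNA, and none was called.

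The upstream PCF11 site at 82869914 lies 26920 nt before the last one. The full-length transcript spans 30464 nt in GRCh38, so if the last site lies at or before its end, the first falls within its first 3544 nt, which hold exon 1 (644 nt) and most of intron 1. This site held 18.8% of the window after CF Im25 siRNA (77 reads) and 10.2% after CF Im59 siRNA (54 reads), against 9.65% with scrambled siRNA (22 reads) and 7.92% without siRNA (37 reads). It held 35.9% after CF Im68 siRNA (355 reads), against 26.7% with scrambled siRNA (120 reads). Its share differed by 9.18 points (3.46 to 14.4) after CF Im25 siRNA, by 0.598 points (-4.48 to 4.90) after CF Im59 siRNA and by 9.26 points (4.08 to 14.2) after CF Im68 siRNA. In CPM the site was 3.14-fold (1.93 to 5.30) over scrambled siRNA after CF Im25 siRNA, 1.85-fold (1.11 to 3.19) after CF Im59 siRNA and 1.27-fold (1.03 to 1.57) after CF Im68 siRNA.

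**Figure D4:**
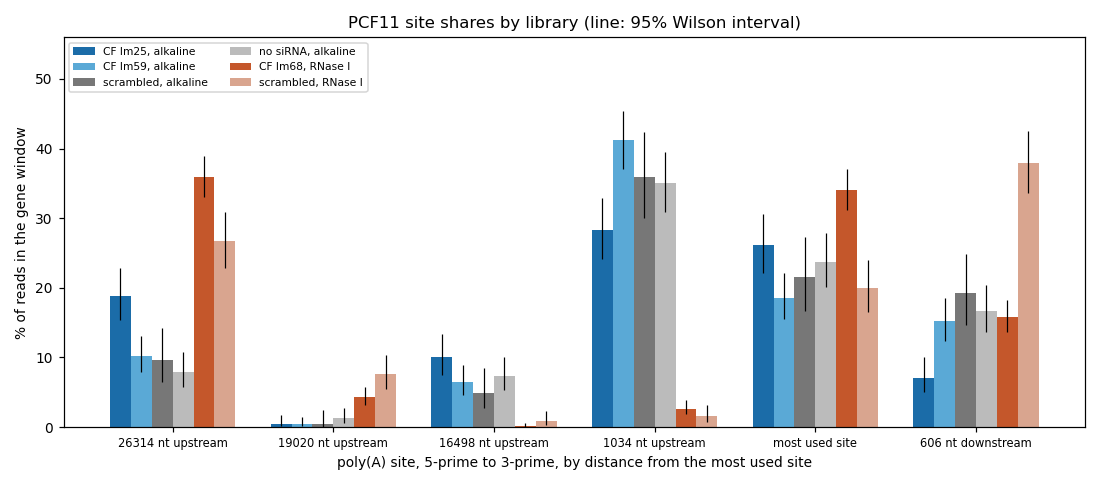
Share of PCF11 reads at each site with at least 5% of the window in some library, in order along the gene and labelled by distance from the site with the highest mean over libraries (most used site). Lines are 95% Wilson intervals. The last site holds 7.09% after CF Im25 siRNA, against 19.3% with scrambled siRNA, and 15.8% after CF Im68 siRNA, against 38.0% with scrambled siRNA.

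The last PCF11 site, at 82896834, differed in the other direction. It held 7.09% of the window after CF Im25 siRNA and 15.2% after CF Im59 siRNA, against 19.3% with scrambled siRNA and 16.7% without siRNA. It held 15.8% after CF Im68 siRNA, against 38.0% with scrambled siRNA. The differences were -12.2 points (-18.2 to -6.77) after CF Im25 siRNA, -4.12 points (-10.4 to 1.55) after CF Im59 siRNA and -22.2 points (-27.3 to -17.2) after CF Im68 siRNA. The window's own pair, formed by the first site and 82896228, gave no call after any siRNA: the first site took 41.8% of the pair after CF Im25 siRNA and 35.5% after CF Im59 siRNA, against 31.0% with scrambled siRNA and 25.0% without siRNA. It took 51.3% after CF Im68 siRNA, against 57.1% with scrambled siRNA. The differences from scrambled siRNA were 10.9 points (-2.54 to 22.8) after CF Im25 siRNA and 4.54 points (-9.01 to 16.9) after CF Im59 siRNA. After CF Im68 siRNA the difference was -5.84 points (-13.3 to 1.87), opposite in sign to that of the pair within the unit. When ends within 10 nt instead of 25 nt were joined, 82896228 was divided and the first and last sites became the pair. The change was 39.0 points (23.9 to 51.8) after CF Im25 siRNA and 29 points (21.9 to 35.8) after CF Im68 siRNA. The PCF11 call thus depended on which sites were paired.

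Other PCF11 sites were found mainly with 1 method. The site at 82895194 held 28.4% of the window after CF Im25 siRNA and 41.2% after CF Im59 siRNA, against 36.0% with scrambled siRNA and 35.1% without siRNA, and 2.63% and 1.56% in the RNase I libraries with CF Im68 and scrambled siRNA. The site at 82879730 held 4.82% to 10.0% of the window in the alkaline libraries and at most 0.889% in the RNase I libraries. The site at 82877208 did the opposite, with 4.25% after CF Im68 siRNA and 7.56% with scrambled siRNA in the RNase I libraries, and 0.380% to 1.28% in the alkaline ones.

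In CSTF1 the site at 54979105, 205 nt upstream of the main one, took 17.9% of the pair after CF Im25 siRNA and 11.3% after CF Im59 siRNA, against 14.1% with scrambled siRNA and 9.59% without siRNA. It took 37.9% after CF Im68 siRNA, against 27.6% with scrambled siRNA. Both RNase I libraries were above all alkaline ones. The change after CF Im68 siRNA was 10.3 points (1.52 to 18.3), short of the 20-point limit. After CF Im25 siRNA it was 3.79 points (0.0198 to 7.45), and after CF Im59 siRNA -2.76 points (-6.41 to 0.877). The pair leaves out the unit's site at 54981418, which is outside the window. The pair held 501 of the unit's 512 reads after CF Im68 siRNA, against 145 of 210 with scrambled siRNA. In the alkaline libraries it held 866 of 915 after CF Im25 siRNA and 652 of 762 after CF Im59 siRNA. The controls had 645 of 688 with scrambled siRNA and 1314 of 1448 without siRNA. Whether the outer site ends CSTF1 transcripts was not tested.

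The single main CSTF2 site lay 2601 nt upstream of a site at 100098523 that is outside the gene window. The outer site held 22 reads after CF Im25 siRNA and 181 after CF Im59 siRNA, against 130 with scrambled siRNA and 224 without siRNA. It held 0 reads after CF Im68 siRNA and 7 with scrambled siRNA in the RNase I libraries. As a pair, the CSTF2 site took 91.2% of 250 reads after CF Im25 siRNA and 45.5% of 332 reads after CF Im59 siRNA, against 60.2% of 327 reads with scrambled siRNA and 50.8% of 455 reads without siRNA. The change was 31.0 points (24.3 to 37.1) after CF Im25 siRNA and -14.8 points (-22.1 to -7.15) after CF Im59 siRNA. Against no siRNA the changes were 40.4 points (34.2 to 45.9) for CF Im25 siRNA and -5.29 points (-12.3 to 1.78) for CF Im59 siRNA. Scrambled siRNA itself differed from no siRNA by 9.48 points (2.41 to 16.4). With RNase I the pair's upstream share was 100% of 518 reads after CF Im68 siRNA, against 95.6% of 159 reads with scrambled siRNA. Whether the outer site ends CSTF2 transcripts was not tested.

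CSTF2T used the site at 53457023 in 87.7% to 95.1% of the reads of its pair, except in the RNase I scrambled library (73.8% of 42 reads). A further site, 88 nt upstream at 53457111, held 7.82% of the window after CF Im25 siRNA (19 reads) and 2.03% after CF Im59 siRNA (3 reads), against 1.87% with scrambled siRNA (4 reads) and 1.27% without siRNA (4 reads). It held 26.4% after CF Im68 siRNA (34 reads), against 10.9% with scrambled siRNA (7 reads). The differences were 5.95 points (1.99 to 10.2) after CF Im25 siRNA and 15.4 points (3.34 to 25.3) after CF Im68 siRNA. The downstream site of the pair, at 53455247, held 4.12% after CF Im25 siRNA and 10.8% after CF Im59 siRNA, against 5.61% with scrambled siRNA and 11.1% without siRNA, and 6.98% after CF Im68 siRNA against 17.2% with scrambled siRNA. Sites at 53455735 and 53457068 held at most 6.25% of the window.

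In CSTF3 the terminal site at 33106131 dominated the alkaline libraries. It held 88.5% of the window after CF Im25 siRNA and 82.7% after CF Im59 siRNA, against 86.7% with scrambled siRNA and 85.4% without siRNA. With RNase I it held 46.2% after CF Im68 siRNA, against 35.6% with scrambled siRNA. The intronic site at 33162978 took 6.16% of its pair with the terminal site after CF Im25 siRNA and 7.81% after CF Im59 siRNA, against 2.92% with scrambled siRNA and 8.51% without siRNA. Here the scrambled library was the low one, and the knockdown libraries lay beside the library without siRNA. In the RNase I libraries the share was 9.45% after CF Im68 siRNA, against 11.7% with scrambled siRNA, a change of -2.24 points (-11.9 to 5.03).

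Other CSTF3 sites separated the methods. The site 41 nt upstream of the terminal one, at 33106172, held 26.4% of the window after CF Im68 siRNA and 21.5% with scrambled siRNA in the RNase I libraries, and 0 to 3 reads in each alkaline library. It was a pile as well, with 95.3% of its reads at 1 nucleotide within each library. The intronic site at 33163051, 73 nt upstream of the other one, held 11.4% after CF Im68 siRNA and 13.6% with scrambled siRNA, against 0.572% to 1.11% in the alkaline libraries. The site at 33160894 held 9.42% of the window (18 reads) in the RNase I scrambled library and 1 to 11 reads elsewhere.

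**Figure D5:**
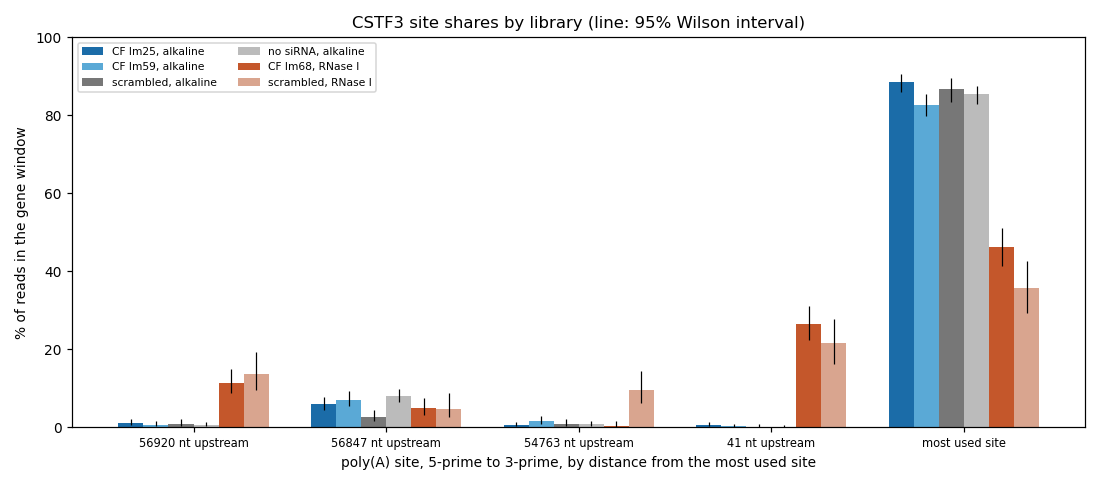
Share of CSTF3 reads at each site with at least 5% of the window in some library, labelled by distance from the terminal site. Lines are 95% Wilson intervals. The site 41 nt upstream holds 21.5% to 26.4% in the RNase I libraries and 0 to 3 reads in each alkaline library.

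CLP1 ended at 57429299 and 57429337, 38 nt apart. The stretch shown for the upstream site, chosen by spacing only, ends in a run of A. Whether priming or the placing of ends at such a run has a part in these shares was not tested. The upstream site took 54.4% of 90 reads after CF Im25 siRNA and 50.7% of 138 reads after CF Im59 siRNA, against 74.7% of 154 reads with scrambled siRNA and 58.2% of 182 reads without siRNA. The changes against scrambled siRNA were -20.2 points (-32.2 to -7.87) and -24.0 points (-34.3 to -12.9), both called. Against no siRNA they were -3.80 points (-16.2 to 8.48) and -7.52 points (-18.3 to 3.44), and neither was called. Scrambled siRNA itself differed from no siRNA by 16.4 points (6.29 to 26.0), so both CLP1 calls rest on the scrambled library. In the RNase I libraries the share was 34.4% of 32 reads after CF Im68 siRNA, against 73.3% of 15 reads with scrambled siRNA, too few to test. When ends within 50 nt were joined the 2 sites merged and no CLP1 pair was left.

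The widest folds of the members as a set were those between the scrambled libraries of the fragmentation methods. CSTF2 and CSTF2T were exceptions, with folds farther from 1 after CF Im59 siRNA (0.593 and 0.521). Each method has 1 scrambled library, so the method cannot be told apart from other differences between these libraries. Between the scrambled libraries, RNase I over alkaline, 1 of 6 members was called higher and 2 were called lower, where the rule called 23.8% of 14135 units higher and 34.8% lower. PCF11 had 96.0 CPM with RNase I, against 26.3 CPM with alkaline hydrolysis (3.65-fold, 3.11 to 4.30). CSTF1 had 31.8 CPM with RNase I, against 76.6 CPM with alkaline hydrolysis (0.415-fold, 0.345 to 0.496), and CLP1 had 3.63 CPM, against 18.0 CPM (0.202-fold, 0.115 to 0.334). CSTF2 (1.40-fold), CSTF2T (0.554-fold) and CSTF3 (0.710-fold) were not called. Of the 11 other genes 7 were called higher and 0 lower, and SYMPK was the farthest, with 101 CPM with RNase I, against 26.7 CPM with alkaline hydrolysis. In site use 1 of 3 pairs was called, the first PCF11 site (26.2 points, 12.8 to 37.7), against 24.9% of 4817 unit pairs upstream and 21.1% downstream. Levels from the CF Im68 pair and from the alkaline libraries therefore cannot be set beside each other, and only differences from the control of the same method are comparable.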

How the data were processed

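The authors deposited whole-number counts of A-seq reads per nucleotide and strand, 1 file per library, unscaled. Positions are in hg19 (GRCh37), per the submitters' processing notes. No source used here gives the aligner or the read filters. Reads were summed in the 6 windows and divided by the library's reads in nuclear units (84.3% to 91.2% of its total). Sites were called once on 6 libraries pooled at equal weight, joining ends within 25 nt. Sites with a mean of at least 1 CPM were kept for the background and joined into units over gaps of at most 5 kb. In the windows, sites of at least 0.1 CPM were counted, and those with at least 5% of the window in any library are given with values. This is the rule for named sites, and all 6 members are described. The other genes of 3′ end processing are named as a list and by their likeness to members. Of them only SYMPK, the farthest of those called between methods, is given with values, beside the siRNA targets and the markers. The CPM scale has no length term.

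Level intervals are exact Poisson, ratio intervals exact conditional binomial (Clopper-Pearson), shares Wilson and differences of shares Newcombe, all at 95%. Scripts used Python 3.11.15, numpy 2.4.6, pandas 2.3.3 and scipy 1.17.1, with edgeR 4.0.16 (TMM) and DESeq2 1.42.0 (median of ratios) for scaling factors only. The calling rules were tested on simulated Poisson and binomial counts, which held no PCR copies, no piled sites and no variation between libraries. That test therefore does not show how often the rules call falsely in these data. The members, gene lists and rules were chosen with earlier results of these data known. Windows of the other genes came from their known hg19 positions, and an hg19 genome and annotation were not used here.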

Additional observations from a re-analysis of the deposited data

How the results depend on the processing

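No paired analysis was possible because each group held 1 library. The title of the CF Im68 library ends in the number 2, and the labels do not say what it stands for. The number of members called in total reads, 0 after each siRNA, became 1 for CF Im25 without the sites that hold at least 90% of their reads at 1 nucleotide (PCF11), and 1 for CF Im59 when called sites of the window only or the whole unit were counted (CSTF2T). The number called in site use, 1 after CF Im25 siRNA, was 2 with 10 nt joined, 3 with the pair taken within the unit, and 0 with 50 nt joined or against no siRNA. After CF Im59 siRNA it was 1, and 0 with 50 nt joined or against no siRNA. After CF Im68 siRNA it was 0, and 1 with 10 nt joined, with all reads upstream of the last site, with a 10-point limit, and with the pair within the unit. In scrambled siRNA against no siRNA it was 0, and 1 with a 10-point limit. Between methods, 3 members were called in total reads and 1 when each nucleotide counted at most 10 times, where CSTF1 turned to 1.49-fold, and the cause was not tested. The site calls between methods, 1, became 2 with 10 nt joined, 20 reads as the minimum, a 10-point limit, the pair within the unit or sites ranked by mean share of the window, and PCF11 turned to -18.9 points with all reads upstream of the last site, -18.2 points with the pair within the unit and -55.4 points with the rank by mean share, which compare other sites. The method alternatives, the pair within the unit, the rank by mean share and the count without piled sites were chosen after seeing the data. TMM moved all log2 folds by 0.18 in the CF Im68 comparison, by -0.11 in scrambled siRNA against no siRNA, by 0.18 between methods and by under 0.1 in the others, and median of ratios by 0.17, -0.11 and 0.22. After CF Im68 siRNA, TMM brought PCF11 to 1.07-fold, CLP1 to 1.09-fold and CSTF3 to 1.002-fold, the other side of 1. Of 252 folds recomputed, 210 counted as the same, as did 145 of 180 share changes. A called value was the same if it stayed called in its direction. An uncalled one was the same if it stayed uncalled and within the counting interval. Without the 50-read minimum the units called were 7296 in place of 3778 after CF Im25 siRNA, 6057 in place of 3009 after CF Im59 siRNA, 5322 in place of 2453 after CF Im68 siRNA, 3486 in place of 1443 in scrambled siRNA against no siRNA, and 15174 in place of 8290 between methods. Depth limits CLP1 (17 and 38 reads) and CSTF2T (64 and 129 reads) in the RNase I libraries.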
